A study of Arabidopsis thaliana with 8 samples.

Results

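The 49 genes described here encode enzymes and proteins that remodel the growing cell wall of Arabidopsis thaliana: 25 xyloglucan endotransglucosylase/hydrolase genes (XTH4 to XTH10, XTH15 to XTH28 and XTH30 to XTH33) and 24 expansin genes (18 EXPA, 2 EXPB, 3 EXLA and 1 EXLB). They were taken by locus identifier from the 27416 transcript models of the deposited tables, and all 49 were found. The rule holds no measured value, but the members were chosen with earlier results of these data known. A filter on low read counts was passed by 48 of the 49, against 6 of 19 further genes of these families. Shares called therefore describe this chosen set and not the whole families. RNA sequencing was done on seedlings of the Col-0 ecotype, with 2 libraries in each of 4 groups. The phyAB group was a double mutant of the red and far-red photoreceptor genes PHYA and PHYB, and the phyB group was a mutant of PHYB alone. Both mutants, and the wild type called WT red, spent 5 days in darkness and then 1 h of red light (50 µmol of photons per square metre and second). The wild type called WT dark spent the same 5 days in darkness and was harvested without red light. All seeds had germinated on medium with 1% sucrose after 3 days of cold and 12 h of white light. The labels name no alleles for either mutant, and no dark-grown mutant seedlings were analysed here. A difference between a mutant and WT red that arose in the light therefore cannot be told apart from one already present in darkness.

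Xyloglucan is the polymer that coats and links cellulose microfibrils in the walls of dicot plants. XTH enzymes cut xyloglucan chains and rejoin them, or hydrolyse them, and are known for work in walls that are being built or stretched. Expansins loosen walls without cutting their polymers and act best at acid pH, so proton pumps of the plasma membrane are part of the same process. In a seedling grown in darkness the hypocotyl elongates quickly while the cotyledons stay closed and small, and light reverses both, so the same gene families serve organs whose growth goes opposite ways.

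The regulatory sequence before the genes that moved most between WT red and WT dark is shown so that the response can be read beside it. These are the 250 bases before the annotated gene start, 5′ to 3′ on the strand of the gene, from the RefSeq annotation and genome of assembly TAIR10.1. The 3 genes with the largest rise in WT red were XTH6 (AT5G65730, chr5:26298478-26298727, plus strand), XTH32 (AT2G36870, chr2:15474829-15475078, minus strand) and EXPA1 (AT1G69530, chr1:26141476-26141725, plus strand). The 3 with the largest fall were XTH15 (AT4G14130, chr4:8138393-8138642, minus strand), EXPA9 (AT5G02260, chr5:462823-463072, plus strand) and XTH19 (AT4G30290, chr4:14830225-14830474, minus strand). Capitals mark matches, on either strand, to CACGTG (the G-box), CACATG (the PBE-box), TGTCTC (an auxin response element), CGTGTG or CGTGCG (brassinosteroid response elements) or GATAAG (the I-box).
XTH6: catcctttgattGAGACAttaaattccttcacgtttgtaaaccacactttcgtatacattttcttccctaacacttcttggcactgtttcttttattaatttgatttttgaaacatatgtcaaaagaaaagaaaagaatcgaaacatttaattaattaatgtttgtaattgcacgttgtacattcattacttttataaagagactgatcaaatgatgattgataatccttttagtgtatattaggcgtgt
XTH32: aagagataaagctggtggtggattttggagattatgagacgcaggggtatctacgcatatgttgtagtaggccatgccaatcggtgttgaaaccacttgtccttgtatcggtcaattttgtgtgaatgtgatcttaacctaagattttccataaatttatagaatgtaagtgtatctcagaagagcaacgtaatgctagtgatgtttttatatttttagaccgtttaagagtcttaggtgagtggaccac
EXPA1: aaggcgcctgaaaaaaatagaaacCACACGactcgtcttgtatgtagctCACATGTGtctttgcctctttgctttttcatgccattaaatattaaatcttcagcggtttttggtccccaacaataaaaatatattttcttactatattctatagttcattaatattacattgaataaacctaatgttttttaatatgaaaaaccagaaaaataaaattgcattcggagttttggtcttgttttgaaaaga
XTH15: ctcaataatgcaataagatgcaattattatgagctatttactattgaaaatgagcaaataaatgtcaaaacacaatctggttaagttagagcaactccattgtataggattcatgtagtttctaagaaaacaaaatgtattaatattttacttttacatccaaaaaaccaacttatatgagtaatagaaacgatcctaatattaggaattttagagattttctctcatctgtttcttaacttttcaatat
EXPA9: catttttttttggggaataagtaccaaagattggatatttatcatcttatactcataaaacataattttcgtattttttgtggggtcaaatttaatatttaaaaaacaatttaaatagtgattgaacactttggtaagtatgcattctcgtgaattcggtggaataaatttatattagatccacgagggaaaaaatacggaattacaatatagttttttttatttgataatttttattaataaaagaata
XTH19: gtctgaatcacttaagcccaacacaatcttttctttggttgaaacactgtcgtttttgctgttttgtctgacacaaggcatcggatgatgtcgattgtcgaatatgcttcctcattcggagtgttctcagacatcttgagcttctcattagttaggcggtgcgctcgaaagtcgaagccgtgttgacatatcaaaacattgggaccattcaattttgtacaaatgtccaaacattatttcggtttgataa

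Capitals are few in these windows. EXPA1 held overlapping matches to CACATG on the 2 strands and a match to CGTGTG, XTH6 held a match to TGTCTC, and the other 4 sequences held none of the motifs. Over windows of 300 bases, which add the 50 bases after the gene start, CACGTG occurred in 0 of the 49 members and in 7.79% of 26709 protein-coding genes of the files. CACATG occurred in 11 members (22.4%, against 13.0% of all genes), CGTGTG or CGTGCG in 10 (20.4%, against 8.19%), TGTCTC in 7 (14.3%, against 14.2%) and GATAAG in 3 (6.12%, against 14.6%). Motifs can overlap each other. Among the 9 members at least 2-fold lower in WT red than in WT dark, 3 held CACATG and 0 held TGTCTC, and among the 11 at least 2-fold higher, 2 held CACATG and 4 held TGTCTC. These are matches of letters in a short window and say nothing of binding.

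Library totals ran from 15926547 to 22116924 reads, and 48 of the 49 members passed the filter on low counts. Levels are given as RPKM, reads per kilobase of transcript model scaled to 1000000 reads of the library, here with library sizes scaled by TMM (a factor of 0.977 to 1.02) so that they can be compared between genes and between libraries. Libraries of a group differed, in squared read difference, by 1.35 to 1.48 times counting noise. The labels do not say whether the libraries of a group came from separate cultures, so p-values rest on a spread that may be technical. PHYA stood at 32.4 and 32.2 RPKM in phyAB, 184 and 184 in phyB, 121 and 123 in WT red and 218 and 216 in WT dark. PHYB stood at 13.2 and 12.6 RPKM in phyAB, 15.6 and 16.1 in phyB, 24 and 23.8 in WT red and 20.2 and 20.4 in WT dark, so transcripts of the mutated genes were lower than in WT red but present, and PHYA was higher in phyB than in WT red (0.59 ± 0.015, adjusted p = 4.21e-71). Root hair markers and markers of the stomatal lineage, as marks of root and shoot epidermis, had reads in each of the 8 libraries. MUTE, of the stomatal lineage, had no more than 10 reads in a library.

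The family covered a wide range of levels, and its total was lowest in WT red. In the phyAB libraries the 49 genes took 5635 and 5642 of every 1000000 reads, in phyB 5205 and 5187, in WT red 4321 and 4333, and in WT dark 5360.4 and 5359. XTH genes made most of that, with 4668 and 4663 of every 1000000 reads in phyAB, 4215 and 4198 in phyB, 3452 and 3479 in WT red, and 4532 and 4516 in WT dark. Expansin genes took 967 and 978 in phyAB, 990.2 and 988 in phyB, 869 and 854 in WT red, and 828 and 843 in WT dark. The groups do not overlap in any of these sums. Fewer cells of a type and less RNA per cell cannot be told apart in RNA of seedlings.

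**Figure D1:**
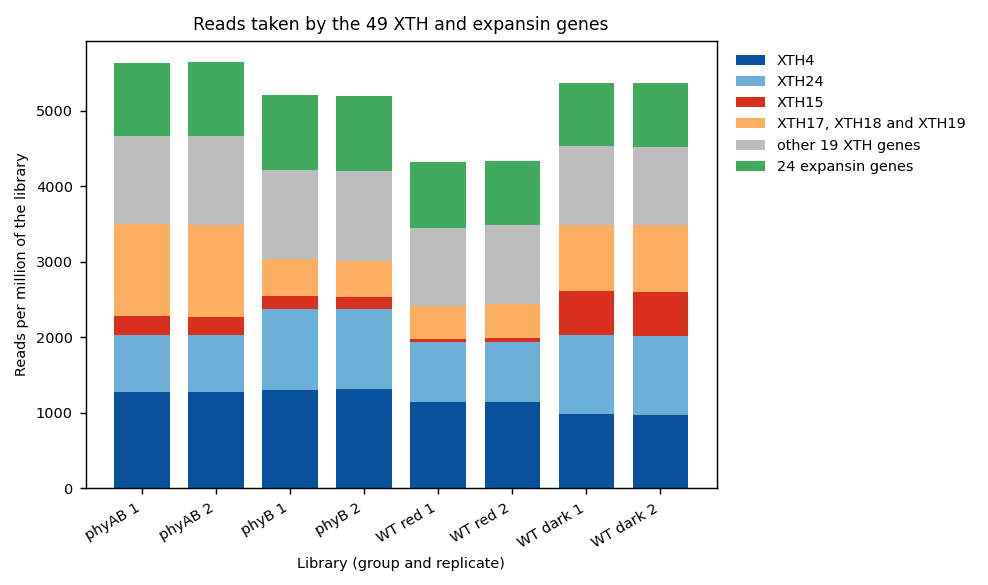
Reads of every 1000000 of each library (vertical axis) taken by the 49 XTH and expansin genes, 1 bar for each of the 8 libraries, stacked by gene or gene set. The WT red bars are the shortest, at 4321 and 4333 reads, and the XTH15 segment is 47.9 and 48.6 reads in WT red and 576 and 578 in WT dark.

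XTH4 and XTH24 led the order of levels. XTH4 (AT2G06850) and XTH24 (AT4G30270, MERI5, first described from meristem tissue) were the 2 members with the highest level in every group. XTH4 led at 1034 and 1027 RPKM in phyAB, 1065 and 1076 in phyB and 963 and 968 in WT red, while XTH24 led in WT dark, at 867 and 867 RPKM against 817 and 806 for XTH4. In each group the gap between these genes was larger than the spread between libraries. The third place was taken by XTH17 in phyAB (494 and 481 RPKM), by XTH30 in phyB (298 and 306 RPKM) and in WT red (240.0 and 243 RPKM), and by XTH15 in WT dark (543 and 545 RPKM). The place after that went to XTH18 in phyAB and to XTH17 in the other 3 groups. In WT dark, EXPA11 (94.3 and 103 RPKM), EXPA8 (99.5 and 97.1 RPKM) and EXPA3 (96.5 and 99.4 RPKM) were the highest expansins and did not differ beyond their spread. In WT red and phyB the highest expansin was EXPA1, and in phyAB EXPA3. At the low end, 15 members averaged under 10 RPKM in phyAB, 14 in phyB, 16 in WT red and 19 in WT dark.

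The comparison of WT red with WT dark sets wild type after 1 h of red light against wild type kept dark, and both families split. XTH15, XTH19, XTH33, XTH5, XTH8, EXPA9, EXPA11, EXPA2 and EXLA2 fell at least 2-fold, and XTH6, XTH32, XTH16, XTH7, XTH9, EXPA1, EXPA16, EXPA10, EXPB3, EXPA5 and EXPA6 rose at least 2-fold. In all, 17 members rose and 21 fell of 48 tested, so 79.2% were called, where 46.8% of all 20716 tested genes were called. By direction, 24.1% of all genes rose and 22.7% fell, and with a change of at least 2-fold 7.06% rose and 2.67% fell. Calls were made at adjusted p under 0.05 (edgeR quasi-likelihood test, Benjamini-Hochberg over all tested genes). In parentheses beside the levels stand log2 changes of the first group over the second, ± the SE of the fit. Their median was −0.09 over the members and 0.00219 over all tested genes. The 24 tested XTH genes gave 10 rises and 10 falls, and the 24 expansins gave 7 rises and 11 falls.

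XTH15 (XTR7, a gene long used as a marker of shade responses) had the largest fall. It stood at 46.1 and 46.7 RPKM in the WT red libraries, against 543 and 545 RPKM in WT dark, a log2 change of −3.55 ± 0.033, adjusted p = 4.9e-125. Its share of all reads of the 49 genes was 1.11% and 1.12% in WT red, against 10.7% and 10.8% in WT dark. The next falls among XTH genes were milder. XTH19 stood at 61.3 and 64.5 RPKM in WT red and 190.2 and 196 in WT dark (−1.62 ± 0.036, adjusted p = 3.19e-79). XTH33, which is anchored in the plasma membrane, stood at 12 and 12.4 RPKM in WT red and 35.6 and 35.4 in WT dark (−1.54 ± 0.085, adjusted p = 4.05e-36). XTH5 stood at 2.79 and 2.03 RPKM in WT red and 6.80 and 6.25 in WT dark (−1.42 ± 0.17, adjusted p = 2.78e-13). In each of these genes both WT red libraries lay below both WT dark libraries.

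The close relatives XTH17, XTH18, XTH19 and XTH20, known mainly from roots, did not fall alike. XTH17 stood at 206 and 204 RPKM in WT red and 390.4 and 393 in WT dark (−0.93 ± 0.026, adjusted p = 2.46e-66). XTH18 fell by less (−0.63 ± 0.030, adjusted p = 3.26e-42), and XTH20 stood at 5.73 and 7.82 RPKM in WT red and 8.35 and 5.46 in WT dark and was not called (−0.05 ± 0.15, adjusted p = 0.806). The coding sequences of XTH18 and XTH19 are 87.6% identical, with a longest identical run of 68 bases, those of XTH18 and XTH20 85.6% and those of XTH17 and XTH18 also 85.6%. How reads that map to several places were counted is not stated, so the split of reads within this set is uncertain. XTH18, XTH19 and XTH24 are numbered next to each other on chromosome 4. XTH24 stood at 669 and 673 RPKM in WT red and 867 and 867 in WT dark (−0.37 ± 0.0092, adjusted p = 3.79e-73).

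Among expansins, EXPA9 had the largest fall. It stood at 13.8 and 12.9 RPKM in WT red and 51.2 and 52.4 in WT dark (−1.95 ± 0.067, adjusted p = 5.83e-57). EXPA11 stood at 34.5 and 32.2 RPKM in WT red and 94.3 and 103 in WT dark (−1.56 ± 0.049, adjusted p = 2.82e-61). EXLA2, an expansin-like gene of a branch for which no wall loosening has been shown, stood at 17.5 and 17.9 RPKM in WT red and 46.8 and 41.7 in WT dark (−1.32 ± 0.071, adjusted p = 6.86e-37). Smaller falls, all called, were those of EXPA3, EXPA8, EXPA4, EXPA14, EXPA18, EXLA1 and EXLA3. The call of EXLA3 (−0.59 ± 0.23, adjusted p = 0.0303) was lost with DESeq2, an alternative to edgeR. It was also lost when any 1 of the WT dark or WT red libraries was left out, and that of EXPA18 without WT red replicate 1. EXPA8 stood at 75.1 and 73.1 RPKM in WT red and 99.5 and 97.1 in WT dark (−0.41 ± 0.040, adjusted p = 5.18e-17), and EXLA1 at 38.4 and 39.2 in WT red and 53.7 and 53.6 in WT dark (−0.47 ± 0.058, adjusted p = 3.83e-12).

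**Figure D2:**
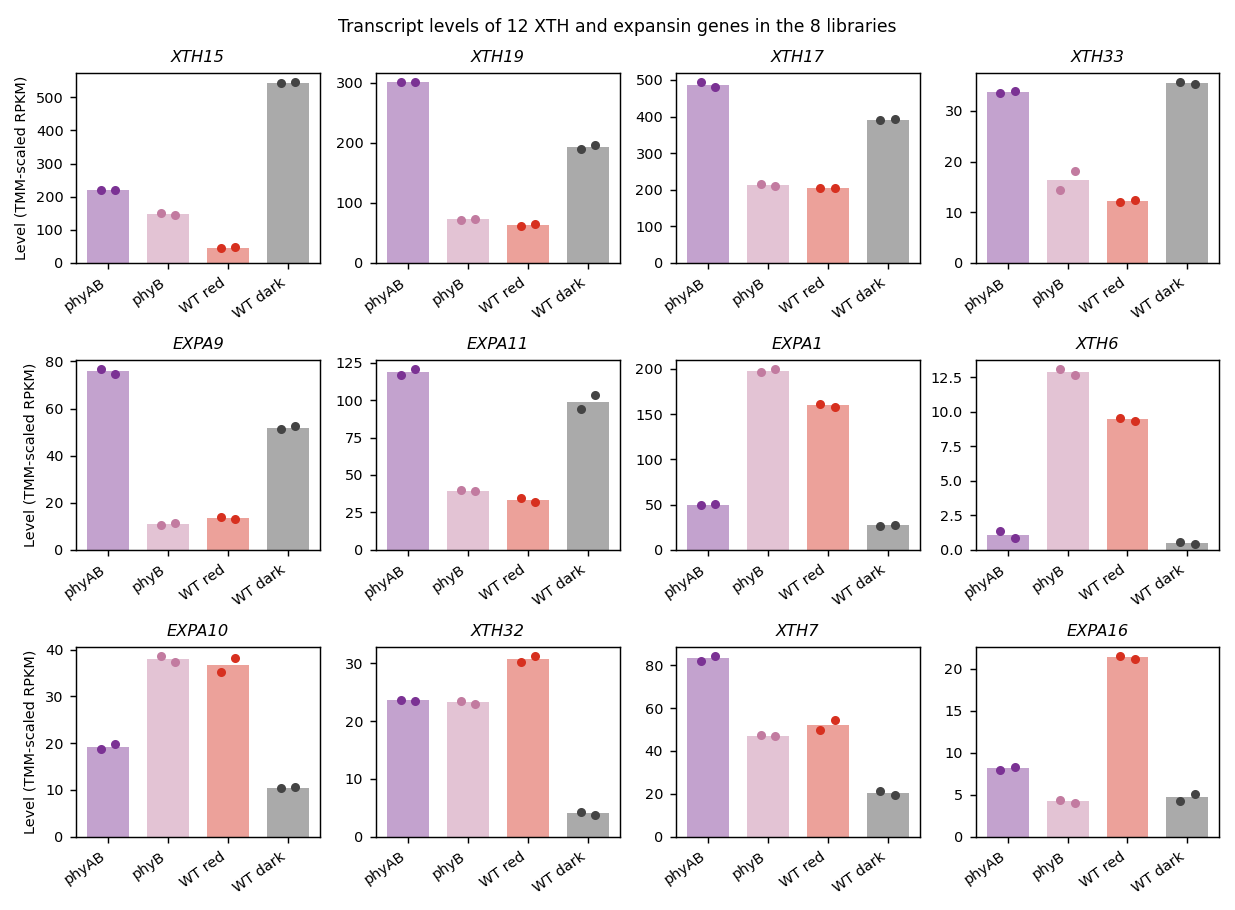
TMM-scaled RPKM (vertical axis, from 0) of 12 XTH and expansin genes in phyAB, phyB, WT red and WT dark, with bars for the group mean and points for the 2 libraries. XTH15, XTH19, XTH17, XTH33, EXPA9 and EXPA11 are lower in WT red than in WT dark, and the other 6 genes are higher. In XTH19, XTH17, EXPA9, EXPA11 and XTH7 the phyAB bar is the tallest.

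The gains in WT red were led by a gene of low level. XTH6 stood at 9.57 and 9.33 RPKM in WT red and 0.584 and 0.433 in WT dark (4.19 ± 0.23, adjusted p = 2.35e-35), with 13 and 9 reads in the WT dark libraries. XTH32, of the XTH branch known for hydrolysing xyloglucan, stood at 30.2 and 31.3 RPKM in WT red and 4.35 and 3.75 in WT dark (2.92 ± 0.10, adjusted p = 1.83e-55). XTH31, of the same branch, rose by less and to a higher level, with 105 and 103 RPKM in WT red and 52.7 and 52.5 in WT dark (0.99 ± 0.040, adjusted p = 8.38e-49). XTH16 stood at 63.2 and 62.6 RPKM in WT red and 23.1 and 22.9 in WT dark (1.45 ± 0.060, adjusted p = 6.63e-48). Also higher were XTH7 (1.35 ± 0.062, adjusted p = 1.62e-43), XTH9 (1.15 ± 0.11, adjusted p = 5.71e-19) and XTH22 (0.82 ± 0.048, adjusted p = 2.78e-33). XTH22 is TCH4, known as a gene induced by touch, and it stood at 76.7 and 77.2 RPKM in WT red and 42.9 and 44.5 in WT dark. XTH4, the most abundant XTH in light, rose slightly to 963 and 968 RPKM in WT red, against 817 and 806 in WT dark (0.25 ± 0.0079, adjusted p = 8.12e-61).

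EXPA1, an expansin known from guard cells, gave the expansin family its largest gain and its highest level in WT red. It stood at 162 and 158 RPKM in WT red and 26.3 and 27.9 in WT dark (2.56 ± 0.041, adjusted p = 8.58e-96). EXPA16 stood at 21.5 and 21.2 RPKM in WT red and 4.31 and 5.05 in WT dark (2.19 ± 0.12, adjusted p = 3.48e-35). EXPA10, known for a part in leaf growth, stood at 35.3 and 38.3 RPKM in WT red and 10.3 and 10.7 in WT dark (1.81 ± 0.097, adjusted p = 3.52e-37). The beta expansin EXPB3 stood at 47.4 and 45.2 RPKM in WT red and 14.9 and 16.1 in WT dark (1.58 ± 0.067, adjusted p = 4.42e-47), and EXPA5 at 20.1 and 18 in WT red and 8.25 and 9.05 in WT dark (1.15 ± 0.096, adjusted p = 2.16e-21). None of these groups of libraries overlap. Markers of guard cells and the stomatal lineage summed to 25.2 and 26.3 CPM (TMM-scaled reads of every 1000000) in WT red and 22.8 and 25.0 in WT dark. Of the 5 only SPCH rose, and KAT1, MYB60 and FAMA were not called. MUTE was not tested, with 1 and 2 reads in the WT dark libraries and 6 and 3 in WT red. None of the 5 was at 0. Of the tested markers 25% were called, against 46.8% of all genes. The part of these cells in the level of EXPA1 was not tested.

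The 10 tested members not called in this comparison were XTH10, XTH20, XTH21, XTH26, EXPA7, EXPA13, EXPA17, EXPA20, EXPB1 and EXLB1. Their log2 changes ran from −0.79 in XTH26 to 0.38 in XTH21, and a missed call does not show that levels were equal. With an assumed variation between cultures of 10% (CV 0.1) on the summed libraries of a group, 14 members instead of 17 rose. The number that fell was 13 instead of 21, and the lost calls were those of XTH4, EXPA8, EXLA1, EXLA3, XTH23, XTH24, XTH27, XTH28, EXPA4, EXPA14 and EXPA18. The 20 members with a change of at least 2-fold were not among the lost calls.

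**Figure D3:**
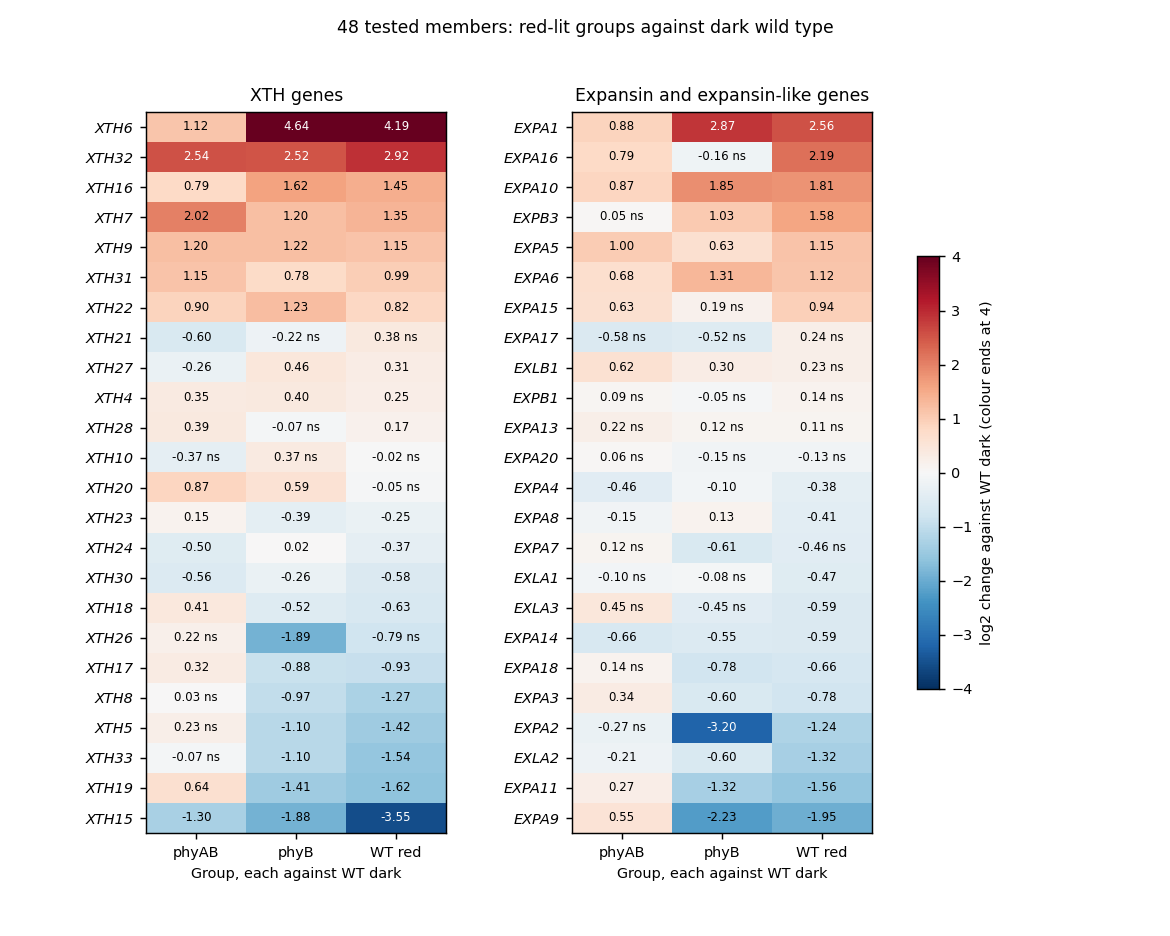
Log2 change against WT dark of the 48 tested members in phyAB, phyB and WT red (columns), XTH genes at left and expansin genes at right, ordered by the WT red value, with ns where the change was not called. XTH19, EXPA9 and EXPA11 are blue in WT red and phyB and red in phyAB, XTH15 is blue in all 3 columns, while XTH32, XTH7, XTH9 and XTH31 are red in all 3 columns.

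Setting phyB against WT red shows how the mutant differed after the same red light, and most of these genes differed by little. XTH15 was 3.18-fold higher in phyB, EXPA16 was 5.09-fold lower and EXPA2 was 3.88-fold lower, and no other member differed by 2-fold with a call. Of 48 tested members 21 were higher and 13 lower (70.8% called), against 27.2% of all tested genes called, 13.1% higher and 14.1% lower. At 2-fold or more, 1.13% of all genes were higher and 1.04% lower. The median log2 change was 0.09 over the members and 0.00189 over all tested genes.

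XTH15 stood at 150.3 and 145 RPKM in phyB and 46.1 and 46.7 in WT red (1.67 ± 0.041, adjusted p = 1.33e-72), and so above WT red yet well below the 543 and 545 RPKM of WT dark. The next higher members were EXLA2, with 29.1 and 29.1 RPKM in phyB and 17.5 and 17.9 in WT red (0.72 ± 0.077, adjusted p = 1.03e-14), and XTH20, with 10.6 and 10.4 RPKM in phyB and 5.73 and 7.82 in WT red (0.64 ± 0.14, adjusted p = 6.41e-05). EXPA8 stood at 107 and 108 RPKM in phyB and 75.1 and 73.1 in WT red (0.54 ± 0.040, adjusted p = 1.49e-24). XTH6 (0.44 ± 0.13, adjusted p = 0.00387), XTH33 (0.44 ± 0.097, adjusted p = 0.000107), XTH22 (0.42 ± 0.041, adjusted p = 2.26e-16), XTH24 (0.39 ± 0.0090, adjusted p = 2.81e-76), EXLA1 (0.39 ± 0.059, adjusted p = 1.51e-08) and EXPA1 (0.31 ± 0.029, adjusted p = 8.26e-18) were also higher. XTH17 stood at 216 and 210.2 RPKM in phyB and 206 and 204 in WT red and was not called (0.05 ± 0.029, adjusted p = 0.199). XTH19 differed slightly (0.21 ± 0.043, adjusted p = 2.66e-05), as did XTH4 (0.15 ± 0.0060, adjusted p = 1.45e-48).

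EXPA16 is the member that phyB separated most from WT red. It stood at 4.40 and 4.03 RPKM in phyB and 21.5 and 21.2 in WT red (−2.35 ± 0.13, adjusted p = 2.83e-36), and WT dark had 4.31 and 5.05 RPKM. EXPA2, an expansin known from germinating seeds, stood at 1.08 and 0.828 RPKM in phyB and 3.81 and 3.46 in WT red (−1.96 ± 0.27, adjusted p = 7.62e-10), with 17 reads in 1 phyB library and 18 in the other. Neither gene's phyB libraries overlapped with those of WT red. EXPA15 stood at 5.92 and 5.17 RPKM in phyB and 9.73 and 8.73 in WT red (−0.75 ± 0.13, adjusted p = 7.5e-07). Other lower members included EXPB3 (−0.55 ± 0.059, adjusted p = 1.43e-14) and EXPA5 (−0.52 ± 0.089, adjusted p = 6.17e-07). EXPA17 stood at 2.36 and 2.17 RPKM in phyB and 3.58 and 4.08 in WT red (−0.76 ± 0.27, adjusted p = 0.0256), and XTH21, known from root growth, at 2.88 and 3.11 in phyB and 4.89 and 4.21 in WT red (−0.60 ± 0.22, adjusted p = 0.0258). The calls of XTH20 (adjusted p = 0.0692) and XTH6 (0.0735) on the higher side and of EXPA17 (0.15) and XTH21 (0.176) were lost with DESeq2. Those of EXPA17 and XTH21 were also lost when 1 library was left out: for EXPA17 any library of phyB or WT red, and for XTH21 either phyB library or WT red replicate 1. That of XTH20 was lost without WT red replicate 1 (0.0529) and that of XTH33 without phyB replicate 2 (0.175). Without phyB replicate 1, 8 members instead of 13 were lower, and with an assumed CV of 0.1 the members called were 2 higher (XTH15 and EXLA2) and 3 lower (EXPA16, EXPA2 and EXPA15).

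Setting phyAB against WT red does the same for the double mutant, and here the differences were large and ran both ways. EXPA9, XTH19, XTH15, EXPA11, XTH5, XTH33, XTH8, XTH17, EXPA3, EXLA2, XTH18 and EXLA3 were at least 2-fold higher than in WT red. XTH6, EXPA1, EXPB3 and EXPA16 were at least 2-fold lower. Of 48 tested members 24 were higher and 13 lower (77.1% called), where 45% of all tested genes were called, 22.3% higher and 22.7% lower, and 4.04% higher and 2.95% lower by at least 2-fold. The median log2 change was 0.17 over the members and 0.00263 over all tested genes. This comparison shares its WT red libraries with the others. Levels in all 4 groups are given side by side for EXPA9 and XTH19 only, and a comparison of phyAB with WT dark follows further below.

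EXPA9 stood at 76.7 and 74.8 RPKM in phyAB and 13.8 and 12.9 in WT red (2.50 ± 0.063, adjusted p = 3.38e-72), with 10.6 and 11.3 in phyB and 51.2 and 52.4 in WT dark. XTH19 stood at 300.3 and 301 RPKM in phyAB and 61.3 and 64.5 in WT red (2.26 ± 0.033, adjusted p = 6.85e-100), with 72.2 and 72.9 in phyB and 190.2 and 196 in WT dark. In these genes phyAB was the highest of the 4 groups, and its libraries overlapped with no other group. XTH15 stood at 221 and 220.5 RPKM in phyAB and 46.1 and 46.7 in WT red (2.25 ± 0.038, adjusted p = 7.49e-93), under its WT dark level. EXPA11 stood at 117 and 121 RPKM in phyAB and 34.5 and 32.2 in WT red (1.83 ± 0.048, adjusted p = 2.05e-70). XTH33 stood at 33.6 and 34 RPKM in phyAB and 12 and 12.4 in WT red (1.47 ± 0.085, adjusted p = 9.69e-34), and XTH5 at 7.63 and 7.66 in phyAB and 2.79 and 2.03 in WT red (1.65 ± 0.16, adjusted p = 4.66e-17). XTH8 stood at 87.3 and 84 RPKM in phyAB and 36 and 33.8 in WT red (1.29 ± 0.050, adjusted p = 3.43e-51), and EXPA3 at 126 and 122 in phyAB and 57.4 and 56.7 in WT red (1.12 ± 0.040, adjusted p = 4.33e-55). In all of these genes the phyAB libraries lay above the WT red libraries. XTH17 took 487 ± 9.25 RPKM in phyAB and 205 ± 1.32 in WT red (mean ± SD, n = 2; 1.25 ± 0.026, adjusted p = 1.6e-82). The 3 relatives XTH17, XTH18 and XTH19 together held 21.8% and 21.6% of the reads of the 49 genes in phyAB, 10.2% and 10.4% in WT red and 16.4% and 16.6% in WT dark.

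The lower side was led by a low-level XTH and by the expansin of highest level in WT red. XTH6 stood at 1.34 and 0.846 RPKM in phyAB and 9.57 and 9.33 in WT red (−3.07 ± 0.20, adjusted p = 9.6e-30), and EXPA1 at 49.2 and 50.9 in phyAB and 162 and 158 in WT red (−1.68 ± 0.036, adjusted p = 9.52e-80). EXPB3 stood at 15.9 and 16.2 RPKM in phyAB and 47.4 and 45.2 in WT red (−1.53 ± 0.066, adjusted p = 7.96e-46). EXPA16 stood at 7.93 and 8.32 RPKM in phyAB and 21.5 and 21.2 in WT red (−1.40 ± 0.11, adjusted p = 6.78e-23), above the phyB level. EXPA10 (−0.94 ± 0.086, adjusted p = 7.02e-19), XTH21 (−0.98 ± 0.23, adjusted p = 0.000121), XTH16 (−0.66 ± 0.054, adjusted p = 7.18e-22) and XTH27 (−0.57 ± 0.034, adjusted p = 2.1e-32) were lower by less than 2-fold. XTH27 is EXGT-A3, known from leaf veins.

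XTH7 and XTH31 moved the other way. XTH7 was higher, with 82 and 84.3 RPKM in phyAB and 49.9 and 54.6 in WT red (0.67 ± 0.048, adjusted p = 2.22e-26), and XTH31 was slightly higher (0.16 ± 0.035, adjusted p = 3.13e-05). XTH9 stood at 19 and 20.1 RPKM in phyAB and 17.4 and 20.5 in WT red (0.05 ± 0.090, adjusted p = 0.697), XTH22 at 80.4 and 82.5 in phyAB and 76.7 and 77.2 in WT red (0.08 ± 0.043, adjusted p = 0.123), and EXPA5 at 17 and 17.7 in phyAB and 20.1 and 18 in WT red (−0.14 ± 0.085, adjusted p = 0.174), and none of these 3 was called. XTH32 was lower by a small margin (−0.38 ± 0.073, adjusted p = 3.98e-06). XTH4 (0.09 ± 0.0062, adjusted p = 2.13e-29), EXPA8 (0.26 ± 0.041, adjusted p = 4.01e-08) and EXLA1 (0.37 ± 0.059, adjusted p = 3.18e-08) were slightly higher. With an assumed CV of 0.1, 16 members instead of 24 were higher and 8 instead of 13 lower. The calls of XTH4, EXPA8, EXLA1, XTH31 and XTH32 were among those lost.

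**Figure D4:**
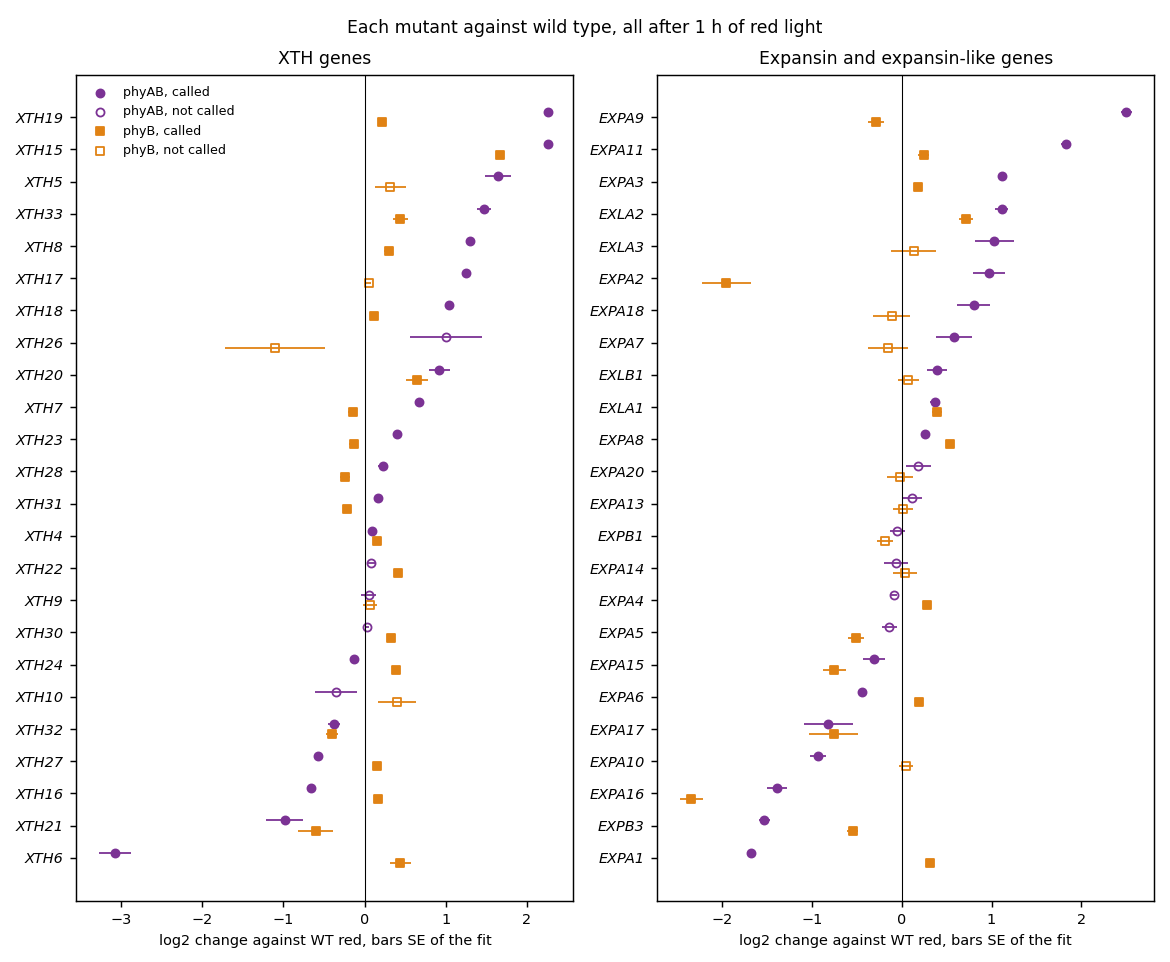
Log2 change against WT red of the 48 tested members in phyAB (circles) and phyB (squares), with bars for the SE of the fit and open symbols where the change was not called. In phyAB, EXPA9 is at 2.50 and XTH6 at −3.07, while in phyB the log2 changes beyond 1 in size belong to XTH15 (1.67), EXPA16 (−2.35), EXPA2 (−1.96) and the uncalled XTH26.

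The direct comparison of the mutants shows how phyAB differed from phyB in the same light, and EXPA2, EXPA9 and XTH26 led the higher side while XTH6 and EXPA1 led the lower. In phyAB against phyB, 25 members were higher and 14 lower (81.2% of 48 called), where 50.2% of all tested genes were called, 26.1% higher and 24.1% lower. At 2-fold or more 8 members were higher and 2 lower, against 4.88% and 4.35% of all genes. The median log2 change was 0.30 over the members and 0.00737 over all tested genes. EXPA2 stood at 7.58 and 6.63 RPKM in phyAB and 1.08 and 0.828 in phyB (2.92 ± 0.23, adjusted p = 7.19e-23). EXPA9 (2.78 ± 0.064, adjusted p = 7.35e-77), XTH19 (2.05 ± 0.032, adjusted p = 2.19e-97), EXPA11 (1.58 ± 0.045, adjusted p = 5.51e-66), XTH5 (1.33 ± 0.15, adjusted p = 9.63e-14), XTH17 (1.20 ± 0.025, adjusted p = 1.34e-81) and XTH33 (1.03 ± 0.079, adjusted p = 3.78e-24) were higher by more than 2-fold. XTH15 differed by less (0.59 ± 0.030, adjusted p = 2.4e-39). XTH26, known from root hairs, stood at 1.20 and 0.860 RPKM in phyAB and 0.171 and 0.287 in phyB (2.11 ± 0.52, adjusted p = 0.000254), at no more than 29 reads in a library.

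XTH6 and EXPA1 were the members more than 2-fold lower in phyAB than in phyB. XTH6 stood at 1.34 and 0.846 RPKM in phyAB and 13.1 and 12.7 in phyB (−3.51 ± 0.19, adjusted p = 2.45e-37), and EXPA1 at 49.2 and 50.9 in phyAB and 197 and 199.7 in phyB (−1.99 ± 0.035, adjusted p = 5.65e-91). Of the 4 tested guard cell and stomatal lineage markers, KAT1 was higher in phyAB and MYB60, FAMA and SPCH were lower, where DESeq2 called 1 higher and 1 lower. All 4 were thus called by edgeR, against 50.2% of all genes. The 5 markers summed to 32.7 and 31.6 CPM in phyAB and 33.2 and 29.8 in phyB, their part in the EXPA1 level again not tested. KAT1 alone made 23.1 and 22.9 CPM in phyAB and 17.2 and 13.9 in phyB. EXPA10 (−0.98 ± 0.084, adjusted p = 7.36e-21), EXPB3 (−0.98 ± 0.070, adjusted p = 1.74e-26) and XTH16 (−0.83 ± 0.053, adjusted p = 2.09e-30) were lower by less. XTH10 stood at 1.32 and 2.15 RPKM in phyAB and 2.74 and 2.92 in phyB (−0.74 ± 0.24, adjusted p = 0.00634), a call lost with DESeq2 (adjusted p = 0.065) and without phyB replicate 2 (0.0576) or phyAB replicate 1 (0.289). XTH22 (−0.34 ± 0.040, adjusted p = 7.12e-13), EXPA8 (−0.28 ± 0.038, adjusted p = 1.01e-10) and XTH4 (−0.05 ± 0.0053, adjusted p = 1.79e-17) were slightly lower, EXPA5 was higher (0.38 ± 0.089, adjusted p = 0.000157) and EXLA1 was not called (−0.02 ± 0.055, adjusted p = 0.796). With an assumed CV of 0.1, 17 members instead of 25 were higher and 8 instead of 14 lower. The calls of XTH4, XTH22, EXPA5 and EXPA8 were among those lost.

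The last comparisons set each red-lit mutant against WT dark, so genotype and light differ together. In phyB, 18 members were higher and 19 lower than in WT dark (77.1% called, against 54.6% of all genes, 27.5% higher and 27.1% lower), and at 2-fold or more 10 were higher and 8 lower, against 8.01% and 2.93% of all genes. The highest values were those of XTH6 (4.64 ± 0.22, adjusted p = 2.95e-42), EXPA1 (2.87 ± 0.040, adjusted p = 2.68e-104), XTH32 (2.52 ± 0.11, adjusted p = 9.18e-47), EXPA10 (1.85 ± 0.095, adjusted p = 5.21e-39), XTH16 (1.62 ± 0.059, adjusted p = 2.11e-54) and EXPA6 (1.31 ± 0.049, adjusted p = 8.83e-53). The lowest were those of EXPA2 (−3.20 ± 0.23, adjusted p = 7.16e-27), EXPA9 (−2.23 ± 0.068, adjusted p = 1.3e-62), XTH26 (−1.89 ± 0.53, adjusted p = 0.00142), XTH15 (−1.88 ± 0.026, adjusted p = 1.07e-103), XTH19 (−1.41 ± 0.034, adjusted p = 1.48e-74), EXPA11 (−1.32 ± 0.047, adjusted p = 1.1e-55) and XTH5 (−1.10 ± 0.16, adjusted p = 5.42e-10). EXPA16 was not called between phyB and WT dark (−0.16 ± 0.16, adjusted p = 0.439). XTH17 was lower (−0.88 ± 0.026, adjusted p = 1.36e-64), XTH22 (1.23 ± 0.045, adjusted p = 8.49e-54), XTH4 (0.40 ± 0.0066, adjusted p = 1.61e-94), EXPA5 (0.63 ± 0.10, adjusted p = 3.14e-08) and EXPA8 (0.13 ± 0.037, adjusted p = 0.00191) were higher, and EXLA1 was not called (−0.08 ± 0.055, adjusted p = 0.222). With an assumed CV of 0.1, 12 members instead of 18 were higher and 13 instead of 19 lower. The calls of XTH4 and EXPA8 were among those lost. The call of EXPA8 was lost under upper-quartile scaling (adjusted p = 0.0909) and without WT dark replicate 2 (0.121).

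In phyAB, 24 members were higher and 9 lower than in WT dark (68.8% called, against 48.2% of all genes, 27.2% higher and 20.9% lower). At 2-fold or more, 6 members were higher and 1 lower, against 6.23% and 1.02% of all genes. The median log2 change was 0.25 over the members and 0.0432 over all tested genes, against −0.09 and 0.0052 in phyB. The member lower by more than 2-fold was XTH15, at 221 and 220.5 RPKM in phyAB and 543 and 545 in WT dark (−1.30 ± 0.024, adjusted p = 2.82e-87). XTH32 stood at 23.7 and 23.5 RPKM in phyAB and 4.35 and 3.75 in WT dark (2.54 ± 0.11, adjusted p = 3.29e-47), and XTH7 at 82 and 84.3 in phyAB and 21.3 and 19.6 in WT dark (2.02 ± 0.056, adjusted p = 5.59e-67). XTH9 (1.20 ± 0.10, adjusted p = 1.24e-20), XTH31 (1.15 ± 0.039, adjusted p = 1.97e-57), EXPA5 (1.00 ± 0.096, adjusted p = 1.05e-17), XTH22 (0.90 ± 0.047, adjusted p = 7.07e-38) and EXPA1 (0.88 ± 0.051, adjusted p = 2.18e-34) were higher as well. XTH6 was higher (1.12 ± 0.37, adjusted p = 0.00731), a call lost without WT dark replicate 2 (0.0942) or phyAB replicate 1 (0.256).

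XTH19 was higher in phyAB than in WT dark (0.64 ± 0.027, adjusted p = 2.97e-47), and so were XTH17 (0.32 ± 0.023, adjusted p = 6.92e-26), XTH18 (0.41 ± 0.026, adjusted p = 1.81e-30), XTH4 (0.35 ± 0.0068, adjusted p = 6.28e-85), EXPA9 (0.55 ± 0.048, adjusted p = 2.04e-20), EXPA3 (0.34 ± 0.035, adjusted p = 1.24e-15) and EXPA11 (0.27 ± 0.038, adjusted p = 1.17e-09). XTH5, XTH8, XTH33 and EXPA2 were not called between these groups, with log2 changes of 0.23, 0.03, −0.07 and −0.27. XTH30 stood at 245 and 246 RPKM in phyAB and 364 and 359 in WT dark (−0.56 ± 0.020, adjusted p = 4.65e-55), EXPA14 at 7.92 and 6.32 in phyAB and 11.8 and 10.8 in WT dark (−0.66 ± 0.12, adjusted p = 1.68e-06), and EXPA4 at 64.1 and 65.8 in phyAB and 88.9 and 90.1 in WT dark (−0.46 ± 0.038, adjusted p = 9.68e-22). XTH24 was lower as well (−0.50 ± 0.0091, adjusted p = 8.32e-89). XTH21 was lower (−0.60 ± 0.23, adjusted p = 0.0273), a call lost with DESeq2 (adjusted p = 0.127) and without WT dark replicate 1 (0.42) or phyAB replicate 1 (0.303). EXPA8 was lower (−0.15 ± 0.038, adjusted p = 0.000428) and EXLA1 was not called (−0.10 ± 0.055, adjusted p = 0.13). With an assumed CV of 0.1, 15 members were higher and 3 lower, and of the calls named here those of XTH4, XTH17, XTH18, XTH21, XTH24, EXPA3, EXPA4, EXPA8, EXPA9 and EXPA11 were lost.

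EXPA7 and EXPA18, expansins known from root hairs, were higher in phyAB than in WT red, at low levels. EXPA7 stood at 4.42 and 4.85 RPKM in phyAB and 2.86 and 3.34 in WT red (0.58 ± 0.20, adjusted p = 0.0126), and EXPA18 at 6.49 and 5.82 in phyAB and 3.26 and 3.88 in WT red (0.80 ± 0.18, adjusted p = 0.000114). The EXPA7 call was lost with DESeq2 and without WT red replicate 1 or phyAB replicate 2. The 5 root hair markers summed to 60.1 and 64.5 CPM in phyAB, 30.7 and 28.8 in phyB, 30.7 and 33.0 in WT red and 52.6 and 51.8 in WT dark. PRP3, a proline-rich wall protein, made 30.8 and 33.3 CPM of the phyAB sum. RHD6 stood at 4.52 and 4.93 RPKM in phyAB and 0.669 and 0.707 in phyB. Its level was 2.85 and 2.51 RPKM in WT red and 7.45 and 6.26 in WT dark. Against WT dark 2 of the 5 were higher in phyAB and 1 lower (60% called, against 48.2% of all genes), but 1 and 1 with DESeq2. In phyAB 4 of the 5 were higher than in WT red, led by PRP3 (1.19 ± 0.088, adjusted p = 2.71e-25), and none was lower. That was 80% called, against 45% of all genes called and 22.3% higher. DESeq2 called 3 of the 5 higher than in WT red. None of the 5 was at 0 in any library. The part of root hair cells in the levels of EXPA7, EXPA18 and XTH26 was not tested.

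EXPA13, EXPA20 and EXPB1 were the tested members called in none of the 6 comparisons. EXPA13 stood at 11.8 and 12 RPKM in phyAB and 9.90 and 10.5 in WT dark, EXPA20 at 6.96 and 8.26 in phyAB and 7.02 and 7.52 in WT dark, and EXPB1 at 17.9 and 18.7 in phyAB and 17.3 and 17.1 in WT dark. XTH23 was called in all 6 at small log2 changes, from −0.39 in phyB against WT dark to 0.53 in phyAB against phyB. Its call in phyB against WT red (−0.13 ± 0.052, adjusted p = 0.044) was lost with RLE scaling, with DESeq2 and without any 1 of the WT dark, WT red or phyB libraries. Its call in phyAB against WT dark (0.15 ± 0.046, adjusted p = 0.0057) was lost with DESeq2 and without WT dark replicate 1, WT dark replicate 2 or phyAB replicate 1. XTH28, known from stamen growth, ran from −0.24 in phyB against WT red to 0.46 in phyAB against phyB. EXLB1, an expansin-like gene, was higher in phyAB than in WT red (0.39 ± 0.11, adjusted p = 0.0027) and than in WT dark (0.62 ± 0.12, adjusted p = 1.77e-06). The annotation places a long noncoding RNA across 1061 bases of EXPA20, and without strand their reads cannot be told apart. XTH25, a neighbour of XTH22, did not pass the filter and had 0 to 8 reads in a library. XTH15 overlaps AT4G14120 by 382 bases, which had 111 reads over all libraries. EXLA1 overlaps the histone gene HTB9 by 22 bases, and HTB9 had 17950 reads over all libraries. EXPA2, EXPA7 and EXPA18 overlap genes of 24, 10 and 1 reads over all libraries, by 61, 23 and 46 bases. The coding sequences of EXLA1 and EXLA3 are 86.0% identical, so their counts may share reads.

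Of 19 further genes of these families, 6 passed the filter, and those other than XTH14 stood under 10 RPKM in every library. In phyAB against WT red 4 of them were higher (66.7% called, against 45% of all genes called and 22.3% higher): XTH12 (1.32 ± 0.26, adjusted p = 7.32e-06), XTH13 (1.55 ± 0.33, adjusted p = 2.7e-05), XTH14 (0.93 ± 0.099, adjusted p = 4.91e-15) and EXPA12 (3.01 ± 0.62, adjusted p = 1.58e-05). In WT red against WT dark 3 were lower, XTH12, XTH13 and XTH14, a share of 50% near the 46.8% of all genes called. In phyB against WT red 0 were called by edgeR, where 27.2% of all genes were called. There 0 had an unadjusted p below 0.05 and 0 were called by DESeq2. XTH14 stood highest of them, at 21.7 and 19.4 RPKM in phyAB, 11.3 and 10.4 in WT red and 16.5 and 15.1 in WT dark.

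Among genes of xyloglucan synthesis and trimming, BGAL10, a beta-galactosidase that trims xyloglucan, fell most in WT red, to 21.4 and 23.2 RPKM in WT red against 50.9 and 48.8 in WT dark (−1.17 ± 0.044, adjusted p = 1.26e-52). XYL1, an alpha-xylosidase that removes xylose from xyloglucan, stood at 54.5 and 55.9 RPKM in WT red and 103 and 104 in WT dark (−0.91 ± 0.028, adjusted p = 7.26e-62). CSLC4, which makes the glucan backbone, stood at 49.8 and 49.4 RPKM in WT red and 82.9 and 79.2 in WT dark (−0.71 ± 0.034, adjusted p = 3.4e-42). Against WT red these genes were higher in phyB: XYL1 (0.97 ± 0.028, adjusted p = 1.76e-64), BGAL10 (0.44 ± 0.048, adjusted p = 2.39e-14) and CSLC4 (0.39 ± 0.035, adjusted p = 2.22e-19). They were also higher in phyAB: XYL1 (0.54 ± 0.029, adjusted p = 1.31e-36), BGAL10 (0.87 ± 0.045, adjusted p = 3.55e-38) and CSLC4 (0.88 ± 0.033, adjusted p = 1.23e-52). Of the 18 genes of the list 2 rose and 7 fell in WT red against WT dark, a share of 50% near the 46.8% of all genes called. In phyB against WT red 5 were higher and 0 lower, 27.8% against 27.2% of all genes, and in phyAB against WT red 12 were higher and 2 lower, 77.8% against 45%. Medians of the list were −0.03 in WT red against WT dark, 0.04 in phyB against WT red and 0.28 in phyAB against WT red.

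Proton pumps supply the acid pH at which expansins work, and AHA2 was the pump gene with the highest level. It stood at 444 and 448 RPKM in WT red and 672 and 673 in WT dark (−0.59 ± 0.0040, adjusted p = 1.41e-143). Of 10 tested AHA genes 1 rose and 5 fell in WT red against WT dark (60% called, against 46.8% of all genes), but 0 rose and 3 fell with DESeq2. In phyB against WT red AHA2 was not called (−0.01 ± 0.016, adjusted p = 0.585), and 2 pump genes were higher and 2 lower (40% called, against 27.2% of all genes; 1 higher and 2 lower with DESeq2). In phyAB against WT red 5 were higher and 1 lower (60% called, against 45% of all genes), with AHA2 at 649 and 650.0 RPKM in phyAB and 444 and 448 in WT red (0.54 ± 0.0040, adjusted p = 2.75e-138). Between phyAB and WT dark the difference in AHA2 was small (−0.05 ± 0.0028, adjusted p = 7.22e-36).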

How the data were processed

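RNA from 8 libraries of seedlings was measured by sequencing of poly(A)-selected RNA, per the labels' protocols. The authors deposited, for each library, read counts and RPKM values per transcript model; the build was TAIR10, per the submitters' processing notes, and no source used here names the aligner, the counter or the use of strand. The deposited RPKM values served only to recover model lengths, which came out whole within 0.01 base for 100% of 24548 models with reads. The deposited counts were filtered (filterByExpr, minimum count 10) and fitted with edgeR 4.0.16 under R 4.3.3 (TMM scaling, robust quasi-likelihood, all 8 libraries, 1 coefficient per group, 4 residual degrees of freedom), and p-values were adjusted by Benjamini-Hochberg over 20716 genes. SE of a log2 change is its size divided by the square root of F. DESeq2 1.42.0 and the other settings named in the closing section were alternatives. Only the edgeR fit was tested on simulated counts, for WT red against WT dark, and the alternatives were not tested in this way. The text names, per comparison, the 6 members with the largest called change each way at 1 CPM or more and 9 fixed members (XTH4, XTH15, XTH17, XTH19, XTH22, EXPA1, EXPA5, EXPA8 and EXLA1). Others were named after their values were seen. Members, gene lists and tests were chosen with earlier results of these data known. Each library's floor of 3 reads was 0.136 to 0.188 CPM, for counting error only. Of 27416 loci, 26719 matched the RefSeq gene table of TAIR10.1. Promoter sequences came from that assembly by locus.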

Additional observations from a re-analysis of the deposited data

How the results depend on the processing

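Under an assumed CV of 0.1, the libraries of a group were summed. In WT red against WT dark 3482 genes instead of 9689 were called, with 14 members higher and 13 lower. In phyB against WT red 625 genes instead of 5633 were called, with 2 members higher and 3 lower. In phyAB against WT red 2731 instead of 9330 were called, with 16 members higher and 8 lower. In phyAB against phyB 3960 instead of 10392 were called, with 17 members higher and 8 lower. In phyB against WT dark 4357 instead of 11306 were called, with 12 members higher and 13 lower. In phyAB against WT dark 2900 instead of 9978 were called, with 15 members higher and 3 lower. That setting was given a larger spread than these libraries show. DESeq2 called 3651 genes in phyB against WT red, and leaving out 1 library gave 8 to 13 lower members there, 8 without phyB replicate 1; the cause was not tested. EXLA1 in phyAB against phyB, not called, turned to 0.0151 (adjusted p = 0.844) under upper-quartile scaling, and ran from −0.0573 to 0.0294 when 1 library was left out, above 0 without phyB replicate 2 (0.780); the cause was not tested. RLE scaling and no low-count filter left every count of genes and of members within 1.5 times. Deviations of same-numbered libraries correlated at −0.0036 to 0.027, so the numbers were not taken to pair the libraries, and the fit with the replicate block kept all member calls, with 9699 genes called in WT red against WT dark and 5662 in phyB against WT red. Depth limits members of few reads, such as XTH26, EXPA2 in phyB and XTH6 in phyAB and WT dark.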
